A study of Mus musculus with 36 samples.

Results

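Coagulation and complement are plasma protein cascades whose components are made largely in the liver, and 40 of their genes were followed in mouse liver through 3 models of cholestasis, the impairment of bile flow. The genes were chosen by name and are grouped by role: 9 clotting factors, 5 genes of the contact system, 4 anticoagulants, 3 genes of fibrinolysis, 7 genes that start complement by the classical and lectin routes, 3 genes of the alternative route and C3, 6 genes of terminal complement and 3 complement regulators. All 40 were found among the 29546 genes of the deposited table, and all 40 were among the 12596 genes that passed the filter on low values (a normalized count of at least 10 in at least 4 of 36 libraries). Hc is the mouse gene for C5.

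All mice were C57BL/6, and each of the 9 groups held 4 livers sequenced by QuantSeq, which reads the 3' end of messenger RNA and here used molecular identifiers. The first model is bile duct ligation, read on day 7 (BDL7) or day 28 (BDL28) and set against sham-operated mice (SHAM). Cyclosporin A, an immunosuppressant that can impair bile secretion, was given by oral gavage at 15 mg/kg in olive oil: CsA7 livers date from day 7, CsA28 livers from day 28, and VEHICLE mice received the oil alone. A diet with 0.1% DDC (3,5-diethoxycarbonyl-1,4-dihydrocollidine), which injures bile ducts through porphyrin deposits, was fed for the third model: DDC7 livers date from day 7, DDC28 livers from day 28, and CTLD mice ate the control diet. The labels give the controls no day, so the same 4 control livers served both days of a model. RNA came from pieces of whole liver, so fewer cells of a type and less RNA per cell cannot be told apart.

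In the clotting cascade, serine proteases activate one another until thrombin, the product of F2, turns fibrinogen into fibrin. Antithrombin, heparin cofactor II and the protein C system restrain it, and plasmin, made from plasminogen, dissolves the clot. Complement is started by C1, by mannose-binding lectins or by the alternative route, all of which converge on C3, and cleavage of C5 then lets C6, C7, C8 and C9 assemble the membrane attack complex. Hepatocytes secrete most of these proteins, and several, such as fibrinogen and C3, are acute-phase proteins whose synthesis responds to inflammatory cytokines.

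Reads recovered from the normalized values ranged from 2081093 to 3770267 per library, and the lowest member count in any library was 24 reads. Hepatocyte markers were abundant in every library, with a sum over 8 genes of 53370 to 106201 normalized counts, and were lower in BDL7 (53370 to 67304) and BDL28 (58970 to 70942) than in SHAM (72577 to 82530). In DDC7 they summed to 54513 to 70806 and in DDC28 to 56478 to 68209, against 84307 to 106201 in CTLD. As a share of a library's counts, they took 2.35% to 2.63% in SHAM, 2.21% to 2.69% in BDL7 and 2.21% to 2.72% in BDL28. These shares overlapped, so the lower sums with BDL rest on the scaling of the libraries. CTLD shares were 2.82% to 3.15%, above those of DDC7 (2.25% to 2.69%) and DDC28 (2.30% to 2.66%). Cholangiocyte markers rose, from 305 to 494 in SHAM to 1860 to 3080 in BDL7 and 976 to 2836 in BDL28. In the DDC model they rose from 311 to 418 in CTLD to 1272 to 1752 in DDC7 and 1260 to 2379 in DDC28. Of these 6 markers Krt7 was at 0 in SHAM. The part of this change of cell markers in the results below was not tested. One library stood apart: BDL28 replicate 1 correlated across genes with its group at a mean r of 0.926 and with DDC28 at 0.957, whereas the other 35 libraries correlated with their own group at 0.946 to 0.973. The counts of members called in BDL28 and some of the BDL28 changes are therefore also given without it. Of the members called in BDL28 against SHAM, only Plg and Cpb2 lost their call without it.

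The question posed by the design is how each model and day changed these genes against its own control. With BDL7, 4 members rose and 21 fell, beside 20.2% of all tested genes that rose and 18.5% that fell. With BDL28, 4 rose and 26 fell (24.1% and 22.7% of all tested genes), and without replicate 1 there were 6 and 24. With DDC7, 3 rose and 27 fell (24.7% and 22.1% of all tested genes). With DDC28, 4 rose and 30 fell (27.9% and 24.7% of all tested genes). The median log2 change of the 40 was -0.33, -0.42, -0.40 and -0.56 in these comparisons, where that of all tested genes was 0.01, 0.03, 0.04 and 0.04. Cyclosporin A gave 0 higher and 5 lower members at CsA7 (1.88% and 2.14% of all tested genes) and 0 of either at CsA28 (0.00794% and 0.0159%).

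These counts depend on how libraries were scaled. Scaled to equal total counts, 9 members rose and 10 fell in BDL7, 9 and 19 in BDL28, 7 and 13 in DDC7, and 8 and 18 in DDC28. Under quantile normalization 14 rose and 10 fell in BDL7, 9 and 19 in BDL28, 13 and 13 in DDC7, and 11 and 19 in DDC28. Of the 12596 tested genes, total-count scaling called 4922 higher and 922 lower in BDL7, and 4829 and 1672 in BDL28. In DDC7 it called 5575 and 1210, and in DDC28 5838 and 1602. Quantile normalization called 2363 higher and 2445 lower in BDL7, and 2928 and 2836 in BDL28. In DDC7 it called 2866 and 2992, and in DDC28 3340 and 3335. The median of the 40 was then -0.01, -0.16, -0.05 and -0.20 with total-count scaling and 0.10, -0.15, -0.01 and -0.12 with quantile normalization, which turned its sign in BDL7. Total-count scaling moved the median log2 change of all tested genes to 0.33, 0.29, 0.38 and 0.39, and the share of called genes that were higher from 52.3% to 84.2%, 51.5% to 74.3%, 52.8% to 82.2% and 53.0% to 78.5%. The changes given below are those under the authors' factors, relative to a median of all genes near 0. Of the 165 member changes called over all comparisons, 91 were called in the same direction under each alternative tried and without each single library in turn.

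**Figure D1:**
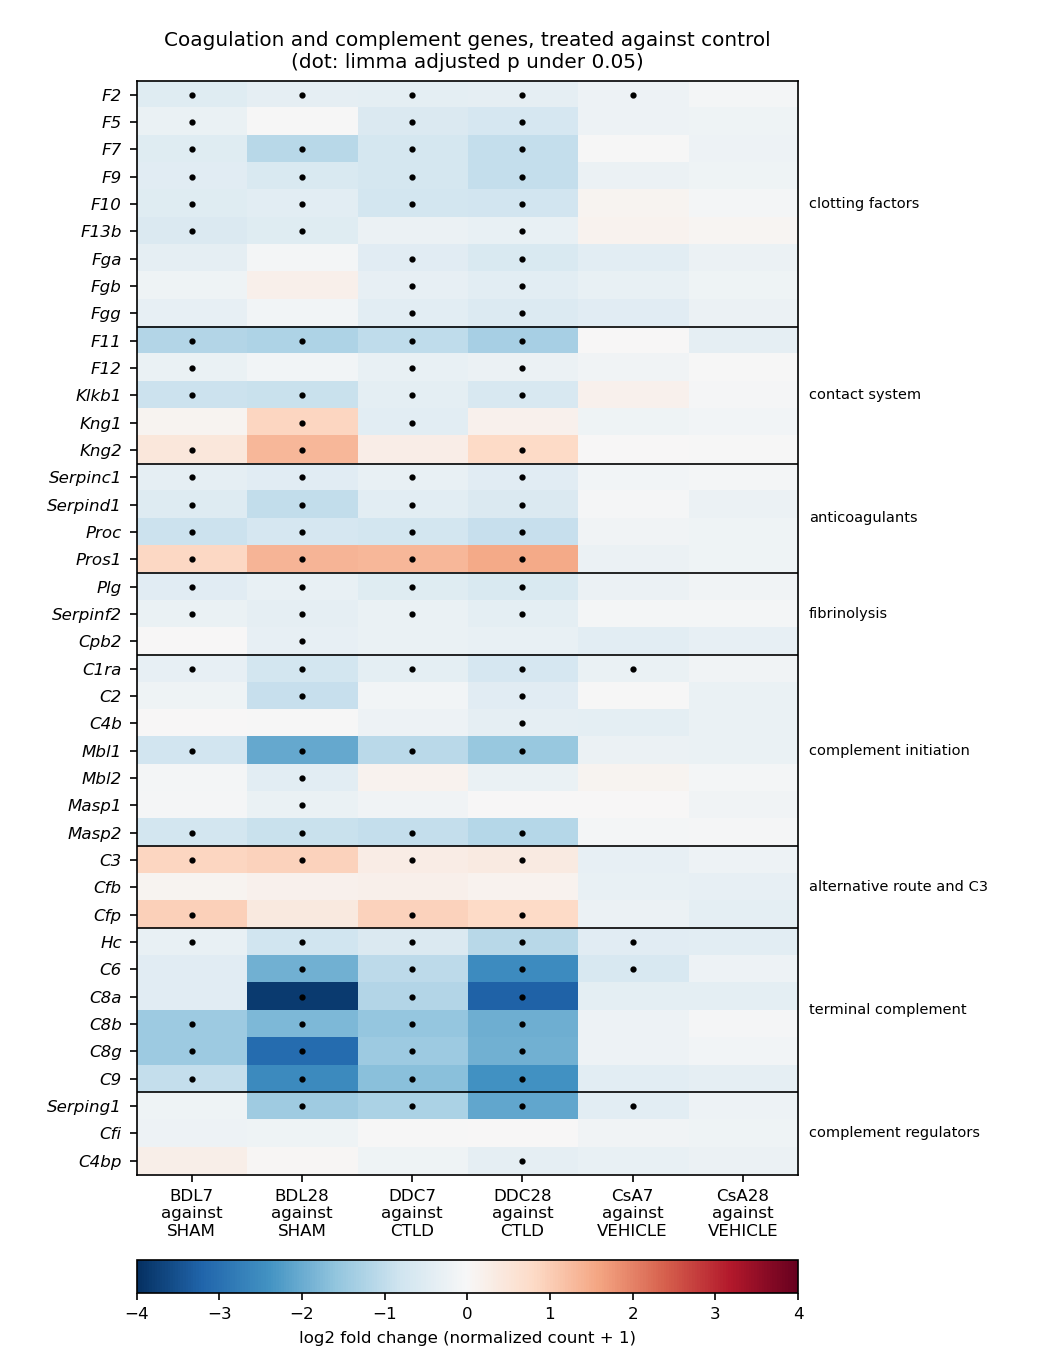
Log2 fold change of the 40 members (rows, by role) in the 6 treated groups against their controls (columns), on the scale of log2(normalized count + 1) with the authors' factors, with a dot where the limma adjusted p was under 0.05. Terminal complement was darkest at day 28 of BDL and DDC, down to -3.82 for C8a, Pros1, Kng2, C3 and Cfp were among the warm rows, and small falls of clotting factors such as F2 lost their call or turned round under other scalings.

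Proximal promoters were compared for 3 pairs of members: C8a and C8b, neighbours that fell, Fga and Fgb of the fibrinogen cluster, and Pros1 and C3, which rose. RefSeq's table (GRCm38.p6) gave entries for 31 of the 40 members, with 32 promoters. The 250 bases before each start site are printed 5' to 3' in the gene's sense, and capitals mark motif matches on either strand.
C8a, chr4:104876399-104876648, minus strand: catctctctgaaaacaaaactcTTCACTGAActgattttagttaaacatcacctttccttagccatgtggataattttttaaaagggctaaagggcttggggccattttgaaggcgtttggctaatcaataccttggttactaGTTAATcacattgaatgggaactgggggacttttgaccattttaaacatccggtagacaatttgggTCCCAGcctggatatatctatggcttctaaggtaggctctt
C8b, chr4:104766067-104766316, plus strand: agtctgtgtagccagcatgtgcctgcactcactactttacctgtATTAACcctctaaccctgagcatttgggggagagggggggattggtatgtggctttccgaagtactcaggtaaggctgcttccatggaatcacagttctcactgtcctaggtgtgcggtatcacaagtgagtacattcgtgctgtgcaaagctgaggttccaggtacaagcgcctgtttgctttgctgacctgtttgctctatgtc
Fga, chr3:83025903-83026152, plus strand: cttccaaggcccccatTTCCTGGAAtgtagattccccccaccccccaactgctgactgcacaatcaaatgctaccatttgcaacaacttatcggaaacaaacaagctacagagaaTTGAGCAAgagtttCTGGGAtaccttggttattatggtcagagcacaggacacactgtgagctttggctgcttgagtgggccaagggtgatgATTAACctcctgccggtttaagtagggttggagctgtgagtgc
Fgb, chr3:83049864-83050113, minus strand: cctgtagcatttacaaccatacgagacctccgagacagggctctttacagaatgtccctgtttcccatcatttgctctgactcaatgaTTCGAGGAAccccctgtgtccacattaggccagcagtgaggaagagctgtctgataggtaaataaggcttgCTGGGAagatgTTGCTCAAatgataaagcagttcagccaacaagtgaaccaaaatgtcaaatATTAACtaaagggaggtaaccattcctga
Pros1, chr16:62854057-62854306, plus strand: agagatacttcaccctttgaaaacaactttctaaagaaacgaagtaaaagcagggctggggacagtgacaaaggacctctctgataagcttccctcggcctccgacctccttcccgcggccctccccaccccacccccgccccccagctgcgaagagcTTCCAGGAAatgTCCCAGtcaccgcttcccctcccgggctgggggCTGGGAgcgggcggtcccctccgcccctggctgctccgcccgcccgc
C3, chr17:57228137-57228386, minus strand: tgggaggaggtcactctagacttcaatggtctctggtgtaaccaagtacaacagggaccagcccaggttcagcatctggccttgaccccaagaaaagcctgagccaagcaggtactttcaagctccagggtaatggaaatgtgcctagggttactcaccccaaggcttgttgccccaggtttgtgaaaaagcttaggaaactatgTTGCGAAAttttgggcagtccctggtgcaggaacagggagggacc
The letters searched were GTTAAT (hepatocyte nuclear factor 1 type), CAAAGTNCA (hepatocyte nuclear factor 4 type), TTGCNNAA (C/EBP type), TTCNNNGAA (STAT type), CTGGGA (interleukin 6 response type) and an inverted repeat of the bile acid receptor FXR. Fga and Fgb each held the hepatocyte nuclear factor 1, C/EBP, STAT and interleukin 6 letters, with the first of these at -43 and -29 from the start site and the C/EBP letters at -135 and -80. C8a held GTTAAT at -107, STAT letters at -228 and CTGGGA at -41, and C8b held only GTTAAT, at -206. Pros1 held STAT letters at -92 and CTGGGA at -80 and -47, without GTTAAT, and C3 held only the C/EBP letters, at -45. Over the 32 member promoters GTTAAT was found in 9 (28.1%) against 6.43% of all 32851 promoters of that length, C/EBP letters in 8 (25%) against 9.56%, STAT letters in 6 (18.8%) against 7.02%, CTGGGA in 13 (40.6%) against 27%, CAAAGTNCA in 1 (3.12%) against 1.19%, and the FXR repeat in 0 against 0.00609%. These are matches of letters and show no binding.

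Terminal complement had the lowest median change of the 8 branches in BDL7, BDL28, DDC7 and DDC28. All 6 of its genes fell in BDL28, DDC7 and DDC28, and 4 of 6 in BDL7, with median log2 changes of -2.24, -1.30, -2.20 and -0.70. Of all tested genes 22.7%, 22.1%, 24.7% and 18.5% fell in these comparisons. The C8 genes encode the 3 chains of C8, the protein that anchors the attack complex in the membrane. C8a, the alpha chain, had normalized counts of 1914, 1738, 1841 and 1826 in SHAM, 1355, 1607, 1201 and 1228 in BDL7 and 326, 29.4, 115 and 243 in BDL28. In the DDC model it had 2013, 2142, 2195 and 1883 in CTLD, 1110.1, 947, 789 and 868 in DDC7 and 323, 347, 95.0 and 214 in DDC28. Every day 28 library lay below every day 7 library, which in turn lay below every control. C8a was 14.1-fold lower in BDL28 (-3.82, SE 0.42, adjusted p = 2.35e-08) and 9.36-fold lower in DDC28 (-3.23, SE 0.42, adjusted p = 3.26e-07). Spread among BDL28 livers was wide, with replicate 2 lowest, and the log2 change was -3.12 without that replicate and -4.26 without replicate 1. In BDL7 the change of C8a was -0.45, SE 0.42, adjusted p = 0.434, and in DDC7 it was -1.16, SE 0.42, adjusted p = 0.0261. This SE rests on a spread estimated over all 9 groups, including the widely scattered BDL28 and DDC28. The missing BDL7 call of C8a therefore does not show that BDL7 overlapped SHAM. Fits on the compared groups alone called 26 members lower in BDL7 and 23 in BDL28, where the main fit called 21 and 26. The DDC7 call of C8a was lost without CTLD replicate 3, DDC7 replicate 3 or DDC7 replicate 4, with log2 changes from -1.25 to -1.08 over the 8 left-out libraries. It was also lost with no filter (-1.16), under total-count scaling (-0.81) and under quantile normalization (-0.80).

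C8g, the gamma chain, had normalized counts of 1317, 1155, 1253 and 1296 in SHAM, 426, 513, 452 and 437 in BDL7 and 285, 48.7, 118 and 297 in BDL28. It had 1251, 1549, 1566 and 1385 in CTLD, 632, 575, 491 and 435 in DDC7 and 385, 387, 397 and 334 in DDC28. The groups of each model did not overlap. C8g was already 2.75-fold lower in BDL7 (-1.46, SE 0.30, adjusted p = 0.000288) and 8.37-fold lower in BDL28 (-3.07, SE 0.30, adjusted p = 1.96e-09). The corresponding falls were 2.71-fold in DDC7 (-1.44, SE 0.30, adjusted p = 0.000266) and 3.81-fold in DDC28 (-1.93, SE 0.30, adjusted p = 4.27e-06). Without BDL28 replicate 1 the BDL28 change was -3.38.

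C8b, the beta chain, fell by day 7 to 2.72-fold below SHAM in BDL7 and 2.91-fold below CTLD in DDC7, and stood 3.46-fold and 3.90-fold lower in BDL28 and DDC28. C9, which forms the pore, was 1.94-fold lower in BDL7, 5.87-fold in BDL28, 3.21-fold in DDC7 and 5.38-fold in DDC28. C6 was 3.82-fold lower in BDL28, 2.07-fold in DDC7 and 5.74-fold in DDC28, while its BDL7 change of -0.45 did not pass the test. Hc, which encodes C5, moved least, by -0.30 in BDL7, -0.79 in BDL28, -0.59 in DDC7 and -1.1 in DDC28. The DDC7 call of Hc was lost under total-count scaling (-0.24). Its BDL7 call turned to 0.02 under that scaling and 0.01 under quantile normalization, and was lost in 7 of 8 left-out libraries (log2 change -0.36 to -0.26). The neighbouring genes C8a and C8b thus differed in size of fall in BDL28, 14.1-fold and 3.46-fold, a difference that was not tested.

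**Figure D2:**
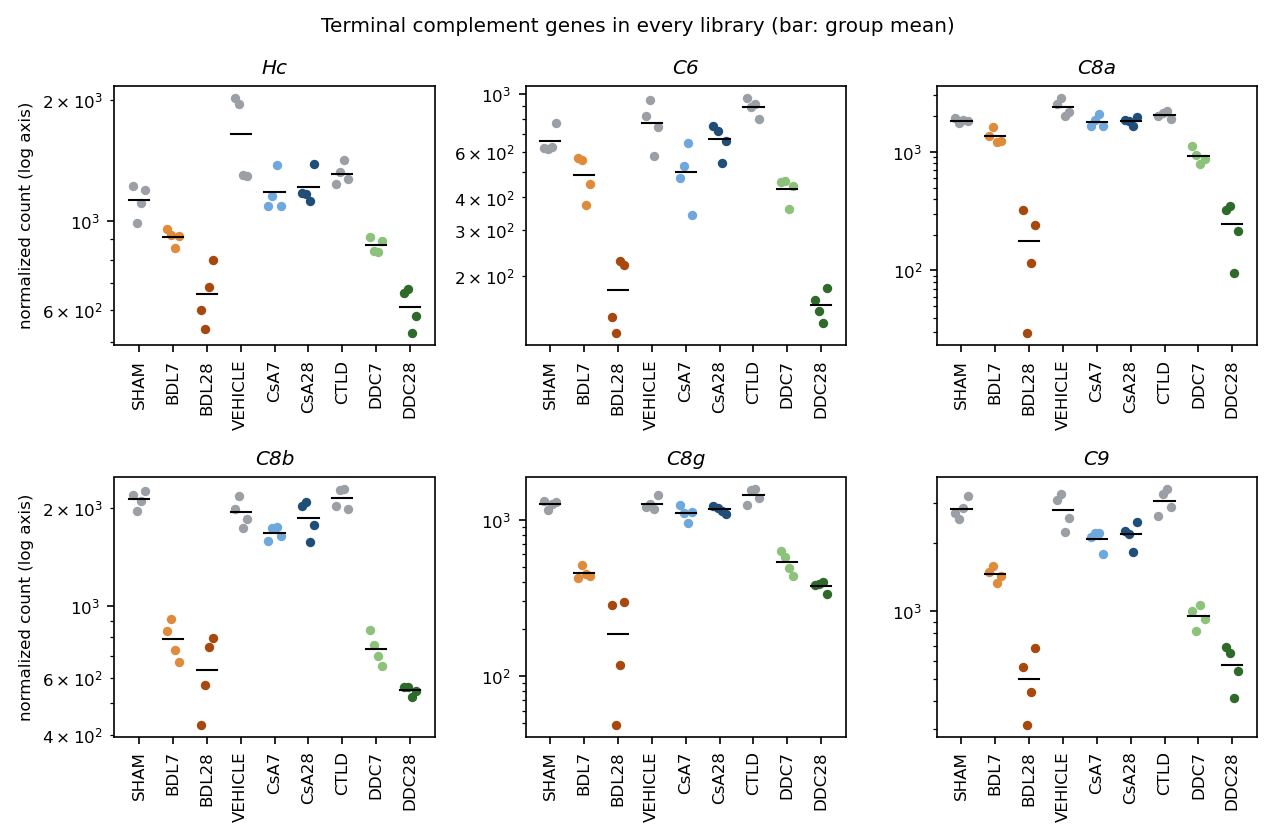
Normalized counts (log axis) of the 6 terminal complement genes in every library, 1 point per liver, with bars at group means. In BDL28 and DDC28 all points of the 6 genes lie below those of their controls, with the widest scatter for C8a in BDL28 (29.4 to 326).

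As a share of the 40 members' summed counts, terminal complement took 12.7% ± 0.806 (SD, n = 4) in SHAM, 8.22% ± 0.706 in BDL7 and 3.41% ± 1.04 in BDL28. It took 13.8% ± 0.731 in CTLD, 7.48% ± 0.884 in DDC7 and 4.48% ± 0.588 in DDC28. The ranges of these groups did not overlap within a model, and BDL28 libraries ran from 2.02% to 4.37%. In VEHICLE, CsA7 and CsA28 the shares were 11.98% ± 0.798, 11.1% ± 0.918 and 11.3% ± 0.569, with overlapping ranges. Because the share is taken within a library, it does not depend on the scaling factor. Per 100 fibrinogen counts there were 44.1 terminal complement counts in SHAM, 29.7 in BDL7 and 10.9 in BDL28, and 52.4, 28.5 and 17.1 in CTLD, DDC7 and DDC28.

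Among the genes that start complement, Mbl1 and Masp2 of the lectin route fell in all 4 BDL and DDC groups. Mbl1 encodes mannose-binding lectin A, which recognises microbial sugars. Its normalized counts were 943, 915, 877 and 886 in SHAM, 537, 552, 506 and 515 in BDL7 and 240.1, 138, 209 and 318 in BDL28. In the DDC model they were 752, 916, 883 and 875 in CTLD, 439, 387, 388 and 387 in DDC7 and 339.8, 335, 243 and 275 in DDC28. No 2 groups of a model overlapped. Mbl1 was 4.16-fold lower in BDL28 (-2.06, SE 0.14, adjusted p = 1.48e-14) and 2.89-fold lower in DDC28 (-1.53, SE 0.14, adjusted p = 2.03e-11), after falls of 1.71-fold in BDL7 (-0.78, SE 0.14, adjusted p = 2.29e-05) and 2.13-fold in DDC7 (-1.09, SE 0.14, adjusted p = 5.28e-08). Mbl2, the gene of the second mannose-binding lectin, passed the test only in BDL28 of these 4 groups (-0.42), and that call was lost under total-count scaling (-0.15) and quantile normalization (-0.18).

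Masp2, the lectin-associated protease that cleaves C4 and C2, had normalized counts of 484, 516, 553 and 515 in SHAM, 288, 299, 302 and 342 in BDL7 and 252, 241, 301 and 335 in BDL28. It had 626, 641.1, 684 and 686 in CTLD, 362, 319, 375 and 314 in DDC7 and 288, 265, 313 and 322 in DDC28. Both treated days lay wholly below the control in each model. The log2 changes were -0.75, SE 0.09, adjusted p = 4.14e-08 in BDL7, -0.88, SE 0.09, adjusted p = 5.73e-10 in BDL28, -0.95, SE 0.09, adjusted p = 1.92e-10 in DDC7 and -1.15, SE 0.09, adjusted p = 9.72e-13 in DDC28. The 3' end of Masp2 overlaps that of Tardbp on the opposite strand, and whether counting used strand is not given in the sources used here. Its relative Masp1 changed by -0.27 in BDL28, a call lost under total-count scaling (-0.00), under quantile normalization (-0.08) and in the fit on the compared groups alone, and did not pass the test in BDL7, DDC7 or DDC28.

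On the classical route, C1ra, a protease of the C1 complex, fell by 0.74 on the log2 scale in BDL28 and by 0.67 in DDC28. Its day 7 falls, by 0.32 and 0.38, were no longer called under total-count scaling (0.00 and -0.03) or quantile normalization (0.10 and 0.01). C2, which forms the C3 convertase with C4, fell by 0.93 in BDL28 and by 0.46 in DDC28, the second of these not under total-count scaling (-0.10). C4b, the C4 gene, changed by 0.00 in BDL7, -0.01 in BDL28 and -0.21 in DDC7 without passing the test. Its DDC28 call (-0.36, adjusted p = 0.038) was lost without CTLD replicate 2 or 4 or DDC28 replicate 3 or 4 (-0.40 to -0.29 over the 8 left-out libraries) and stood at 0.00 under total-count scaling. C1ra and C4b have closely similar copies, C1rb and C4a, so their counts are uncertain, and C2 shares its 3' end with the gene model Gm20547.

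C3 rose in BDL and DDC livers. C3 is the component on which all routes converge and is an acute-phase protein. Its normalized counts were 4018, 3840, 3783 and 3534 in SHAM, 6555, 6602, 7754 and 6809 in BDL7 and 5819, 7855, 7372 and 8124 in BDL28. In the DDC model they were 4246, 4797, 4277 and 4423 in CTLD, 5609, 5204, 5879 and 5169 in DDC7 and 5468, 5786, 5895 and 5839 in DDC28. Every treated library lay above every control of its model. C3 was 1.82-fold higher in BDL7 (0.87, SE 0.11, adjusted p = 1.35e-07) and 1.91-fold higher in BDL28 (0.93, SE 0.11, adjusted p = 1.69e-08), or 1.04 on the log2 scale without BDL28 replicate 1. The rises with DDC were 1.23-fold in DDC7 (0.30, SE 0.11, adjusted p = 0.0265) and 1.3-fold in DDC28 (0.37, SE 0.11, adjusted p = 0.0052). The DDC7 call was lost without CTLD replicate 1 or 3 or DDC7 replicate 1 or 3 (log2 changes of 0.26 to 0.34 over the 8 left-out libraries).

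Cfp encodes properdin, which stabilises the alternative convertase and is made mainly by myeloid cells. Its normalized counts were low: 59.2, 50.9, 53.7 and 60.5 in SHAM, 114, 106, 117 and 97.7 in BDL7 and 71.8, 73.5, 68.7 and 79.3 in BDL28. The DDC model gave 54.7, 48.6, 50.9 and 65.5 in CTLD, 113, 73.5, 154 and 89.9 in DDC7 and 119, 108, 101 and 66.1 in DDC28. Treated libraries lay above their controls in both models, by little for DDC28 replicate 4. Cfp rose 1.92-fold in BDL7 (0.94, SE 0.17, adjusted p = 3.06e-05), 1.88-fold in DDC7 (0.91, SE 0.17, adjusted p = 3.54e-05) and 1.75-fold in DDC28 (0.81, SE 0.17, adjusted p = 0.000133), and in BDL28 its change was 0.38, SE 0.17, adjusted p = 0.0601. Markers of monocytes and macrophages summed to 279 to 376 in SHAM, 1022 to 1328 in BDL7 and 480 to 1356 in BDL28, and to 276 to 377 in CTLD, 796 to 1199 in DDC7 and 967 to 1442 in DDC28. Neutrophil markers summed to 28.5 to 44.0 in SHAM, 191 to 328 in BDL7 and 183 to 459 in BDL28, and to 8.11 to 19.6 in CTLD, 103 to 207 in DDC7 and 347 to 383 in DDC28. The part of these cells in the level of Cfp was not tested. Cfb, factor B, changed by 0.12, 0.16, 0.21 and 0.14 in BDL7, BDL28, DDC7 and DDC28 and passed the test in none.

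Serping1 had the lowest change among the regulators in BDL28, DDC7 and DDC28. It encodes C1 inhibitor, which blocks the proteases of the classical and lectin routes and of the contact system. Its normalized counts were 1227, 1093, 1216 and 1175 in SHAM, 1183, 1109.8, 929 and 953 in BDL7 and 400.4, 351, 501 and 527 in BDL28. In the DDC model they were 1544, 1734, 1790.3 and 1592 in CTLD, 739, 673, 702 and 644 in DDC7 and 417, 438, 342 and 377 in DDC28. SHAM and BDL7 overlapped, whereas BDL28 lay far below both and the 3 DDC groups were separate. Serping1 was 2.68-fold lower in BDL28 (-1.42, SE 0.11, adjusted p = 2.30e-13), 2.41-fold lower in DDC7 (-1.27, SE 0.11, adjusted p = 7.27e-12) and 4.24-fold lower in DDC28 (-2.08, SE 0.11, adjusted p = 9.47e-18), with a BDL7 change of -0.18, SE 0.11, adjusted p = 0.181. The BDL7 effect exceeded the DDC7 effect by 1.09 on the log2 scale (SE 0.15, adjusted p = 6.45e-05), meaning a smaller fall in BDL7. Serping1 also differed among the 3 control groups (F test, adjusted p = 8.88e-05).

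C4bp, the C4b-binding protein, had normalized counts of 1697, 1685, 1717 and 1739.7 in SHAM, 2053, 2219.5, 1983 and 1794 in BDL7 and 1108, 2034, 2059 and 2198 in BDL28. It had 1459, 1799, 1921 and 1686 in CTLD, 1464, 1505, 1712 and 1434 in DDC7 and 1387, 1241, 1283 and 1443 in DDC28. The low BDL28 value is that of replicate 1. C4bp changed by 0.06 in BDL28 with all libraries and by 0.29 (adjusted p = 0.0302) without that replicate. Its DDC28 call (-0.35, adjusted p = 0.0348) was lost in 5 of 8 left-out libraries (-0.43 to -0.30) and stood at 0.01 under total-count scaling. Cfi, factor I, which cleaves C3b and C4b, passed the test in none of the 4 groups, with changes from -0.20 to 0.01.

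**Figure D3:**
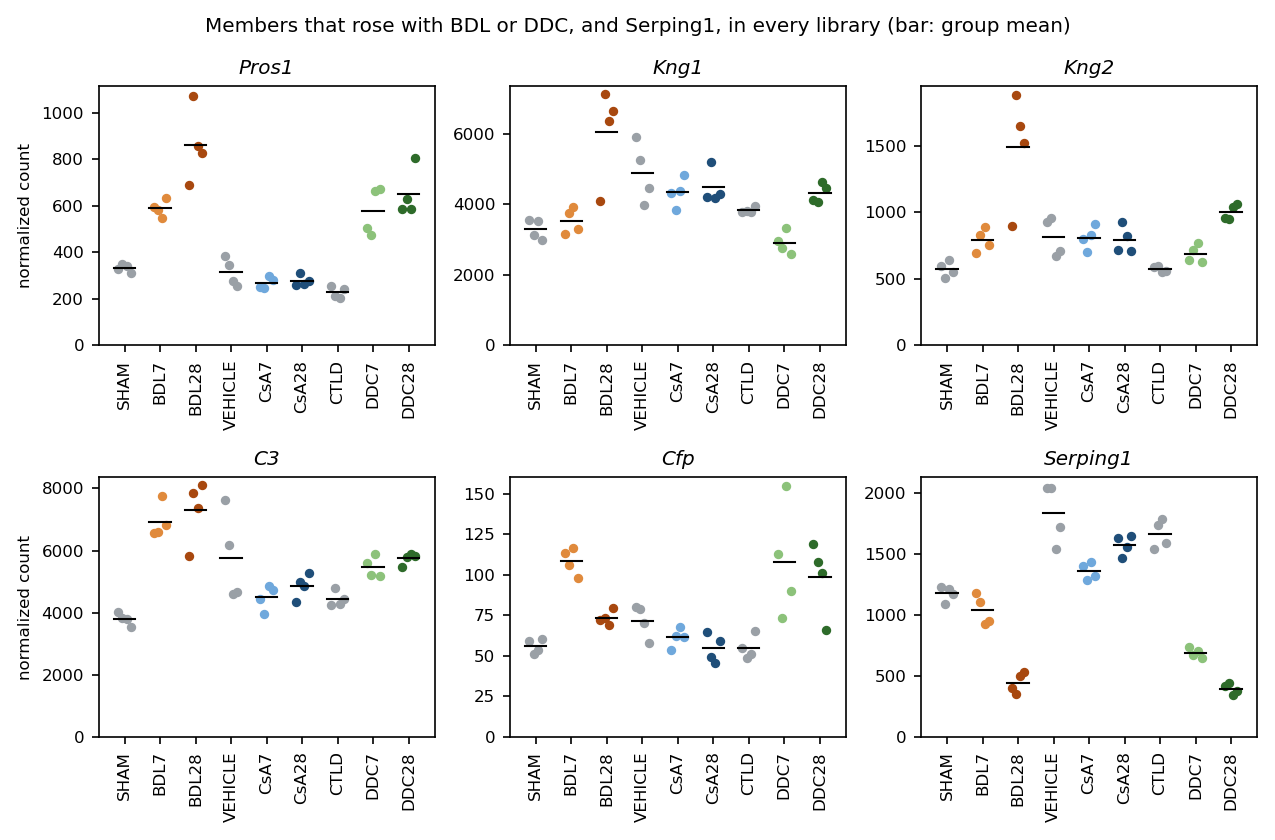
Normalized counts of Pros1, Kng1, Kng2, C3, Cfp and Serping1 in every library, 1 point per liver, with bars at group means. Pros1 and C3 lie above their controls in each BDL and DDC library, and Serping1 lies below its control in BDL28, DDC7 and DDC28 but not in BDL7.

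By median, clotting factors fell by less than terminal complement, though by more than the complement regulators. Of the 9, 6 fell in BDL7, 5 in BDL28, 8 in DDC7 and 9 in DDC28, with medians of -0.44, -0.36, -0.46 and -0.61. The shares of all tested genes that fell were 18.5%, 22.7%, 22.1% and 24.7%. F7, the protease that tissue factor binds, had normalized counts of 226, 228, 266 and 263 in SHAM, 161, 190.2, 180.5 and 176 in BDL7 and 94.4, 103, 130 and 125 in BDL28. It had 203, 266, 224 and 230.2 in CTLD, 161, 145, 139.5 and 126 in DDC7 and 133, 108, 111 and 125 in DDC28. No treated library reached its controls. F7 was 2.17-fold lower in BDL28 (-1.12, SE 0.12, adjusted p = 2.14e-09), 1.61-fold lower in DDC7 (-0.69, SE 0.12, adjusted p = 2.03e-05) and 1.93-fold lower in DDC28 (-0.94, SE 0.12, adjusted p = 5.71e-08). The fall in BDL7 (-0.47, SE 0.12, adjusted p = 0.00221) was no longer called under total-count scaling (-0.15).

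F9, the vitamin K-dependent protease missing in hemophilia B, had normalized counts of 822, 773, 884 and 909.6 in SHAM, 556, 662, 622 and 666 in BDL7 and 411, 542, 674 and 609 in BDL28. It had 1032, 1015, 1179.6 and 941 in CTLD, 685, 631, 652 and 610.5 in DDC7 and 515, 519, 497 and 618 in DDC28. Treated and control libraries did not overlap. The log2 changes were -0.62, SE 0.11, adjusted p = 2.07e-05 in BDL28, -0.69, SE 0.11, adjusted p = 4.53e-06 in DDC7 and -0.95, SE 0.11, adjusted p = 6.58e-09 in DDC28. The BDL7 change (-0.44) lost its call under total-count scaling (-0.11) and quantile normalization (-0.15). F10, which with its cofactor F5 makes thrombin, fell by 0.74 in DDC7 and by 0.78 in DDC28, and by 0.48 and 0.42 in BDL7 and BDL28, where total-count scaling left -0.15 and -0.16 without a call. F5 fell by 0.58 and 0.67 with DDC, with -0.15 and no call in DDC7 under quantile normalization, and was at -0.01 in BDL28. Its called BDL7 change of -0.26 became 0.07 under total-count scaling and 0.10 under quantile normalization. F2 fell by 0.50, 0.36, 0.40 and 0.36 in BDL7, BDL28, DDC7 and DDC28, but quantile normalization turned these into 0.13, 0.14, 0.26 and 0.41. F13b, the carrier subunit of the fibrin-stabilising factor XIII, fell by 0.57 and 0.50 with BDL. Its DDC28 call (-0.30) was lost without CTLD replicate 3 or 4 or DDC28 replicate 1 or 2 (-0.37 to -0.26) and stood at 0.06 under total-count scaling.

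The 3 fibrinogen chains are encoded side by side on chromosome 3. Fga had normalized counts of 5927, 5595, 5976 and 5617 in SHAM, 4849, 4717, 4793 and 3883 in BDL7 and 3645, 7124, 5849 and 6019 in BDL28, and 4934, 5729.6, 5249 and 5790.4 in CTLD, 3451, 3482, 4802 and 4107 in DDC7 and 3761, 3618, 3292 and 3544 in DDC28. Fgb had 8982, 8158, 8649 and 8029 in SHAM, 7651, 7888, 8083 and 6299.6 in BDL7 and 6305, 14268, 10051 and 9819.8 in BDL28, and 7800, 9382, 8102 and 8084 in CTLD, 5959, 5729, 7613 and 7238 in DDC7 and 6311, 6498, 5904 and 6323 in DDC28. Fgg had 8654, 7797, 8290.1 and 7779 in SHAM, 6498, 6853, 7085 and 5389 in BDL7 and 4730.2, 9807, 7997 and 8336 in BDL28, and 6683, 7321, 6973 and 7380.1 in CTLD, 4778, 4649.8, 6437 and 5547 in DDC7 and 4884, 4981, 4743 and 4875 in DDC28. Among the BDL and DDC groups and their controls, BDL28 spanned the widest range for all 3 chains, with replicate 1 lowest and replicate 2 highest, and overlapped SHAM. None of the 3 passed the test in BDL7 or BDL28, with BDL28 changes of -0.07, 0.20 and -0.12 for Fga, Fgb and Fgg. Fgb was called higher in BDL28 under total-count scaling (0.46) and quantile normalization (0.91). Without BDL28 replicate 1, Fgb was 0.41 higher on the log2 scale (adjusted p = 0.00541).

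In DDC28 all 3 chains were lower, by -0.61 for Fga, -0.41 for Fgb and -0.54 for Fgg, but under quantile normalization the changes were 0.17, 0.58 and 0.32. In DDC7 the changes of -0.46, -0.34 and -0.42 likewise became 0.26, 0.63 and 0.41. Call and direction of the fibrinogen genes thus rest on the scaling. The DDC7 calls were lost in 6 of 8 left-out libraries for Fgb (-0.41 to -0.27) and without DDC7 replicate 1 or 2 for Fgg (-0.51 to -0.35), and the DDC28 call of Fgb without CTLD replicate 2 (range -0.44 to -0.35).

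**Figure D4:**
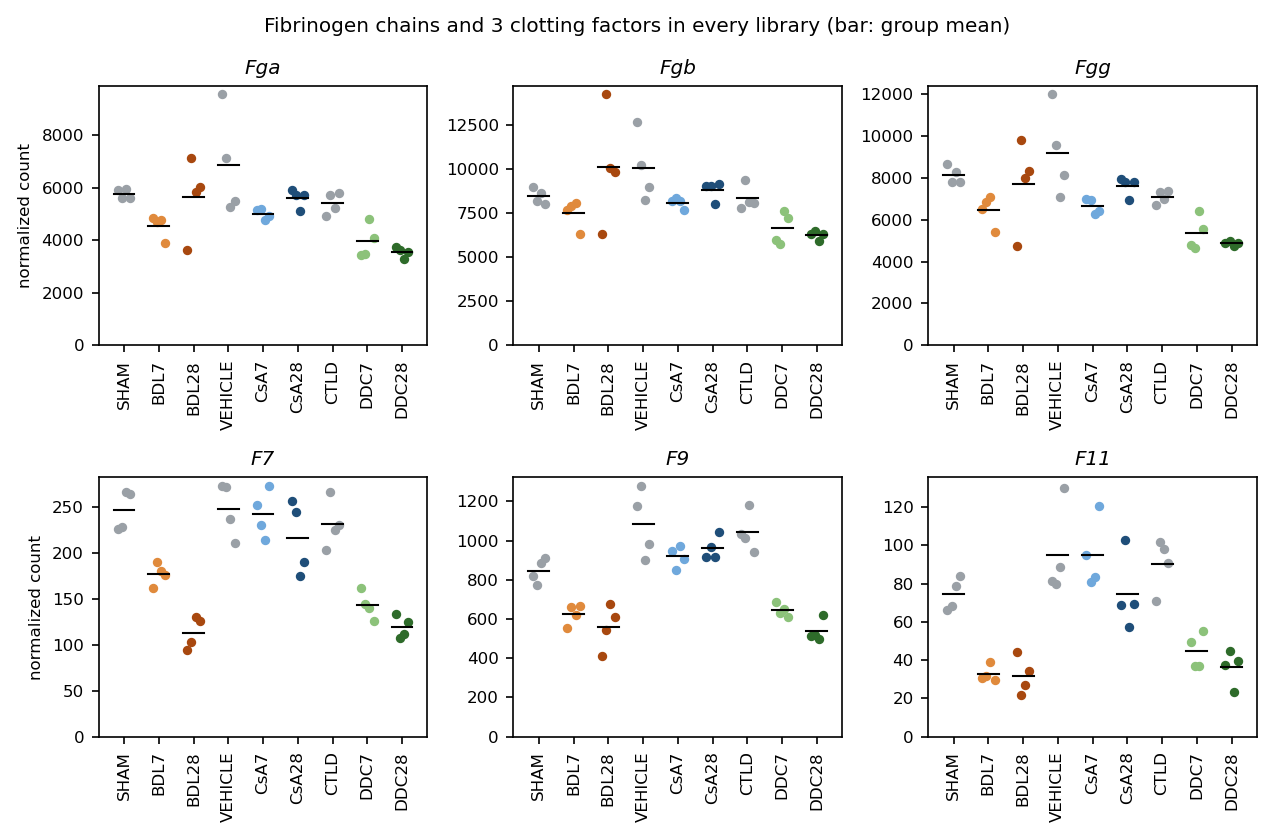
Normalized counts of Fga, Fgb, Fgg, F7, F9 and F11 in every library, 1 point per liver, with bars at group means. F7, F9 and F11 lie below their controls in each BDL and DDC library, whereas the fibrinogen chains of BDL28 straddle SHAM (Fgb 6305 to 14268), and the fibrinogen falls with DDC turn round under quantile normalization.

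In the contact system 3 of 5 genes fell and 1 rose in BDL7 and DDC28, 2 fell and 2 rose in BDL28, and 4 fell in DDC7. In BDL7, BDL28, DDC7 and DDC28, 20.2%, 24.1%, 24.7% and 27.9% of all tested genes rose. There 18.5%, 22.7%, 22.1% and 24.7% fell, so 1 rise among 5 genes is near these shares. F11, factor XI, had normalized counts of 66.1, 68.3, 78.9 and 84.2 in SHAM, 30.9, 31.5, 38.9 and 29.8 in BDL7 and 44.3, 22.1, 26.9 and 34.3 in BDL28. It had 71.0, 102, 97.9 and 90.6 in CTLD, 49.4, 36.8, 36.9 and 55.2 in DDC7 and 37.3, 44.9, 23.5 and 39.5 in DDC28. Treated and control libraries did not overlap in either model. F11 was lower by 2.23-fold in BDL7 (-1.16, SE 0.21, adjusted p = 2.62e-05), 2.35-fold in BDL28 (-1.24, SE 0.21, adjusted p = 6.76e-06), 2.02-fold in DDC7 (-1.01, SE 0.21, adjusted p = 0.000124) and 2.49-fold in DDC28 (-1.32, SE 0.21, adjusted p = 1.81e-06). Klkb1, prekallikrein, whose gene neighbours F11, fell by 0.87 and 0.89 in BDL7 and BDL28 and by 0.65 in DDC28. Its DDC7 fall of 0.39 was not called under total-count scaling (-0.04) or quantile normalization (-0.08). F12, which starts the system on surfaces, changed by -0.28, -0.11, -0.29 and -0.24 in BDL7, BDL28, DDC7 and DDC28. Both other scalings removed the 3 calls of F12 and turned the values positive, and the BDL7 call was also lost without SHAM replicate 3 (range -0.30 to -0.24) and the DDC28 call in 5 of 8 left-out libraries (-0.31 to -0.19).

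Kng2, a kininogen gene, had normalized counts of 599, 505, 645 and 548 in SHAM, 694, 827, 886 and 752 in BDL7 and 899, 1882, 1648 and 1522 in BDL28. It had 589.9, 594, 549 and 562 in CTLD, 643, 715, 766 and 627 in DDC7 and 955, 950, 1041 and 1064 in DDC28. Kininogens carry bradykinin, which plasma kallikrein releases. Every BDL and DDC library lay above its controls. Kng2 rose 1.37-fold in BDL7 (0.46, SE 0.14, adjusted p = 0.0104), 2.51-fold in BDL28 (1.33, SE 0.14, adjusted p = 2.26e-09) and 1.74-fold in DDC28 (0.80, SE 0.14, adjusted p = 1.70e-05), and its DDC7 change was 0.26, SE 0.14, adjusted p = 0.141. BDL28 replicate 1 was the lowest of its group, and without it the change was 1.55. Kng1 rose by 0.85 in BDL28 (1.03 without replicate 1), fell by 0.41 in DDC7 and changed by 0.10 and 0.17 in BDL7 and DDC28. The DDC7 fall of Kng1 became 0.24 under quantile normalization. The kininogen genes are closely similar, so the division of reads between them is uncertain.

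Of the anticoagulants, 3 of 4 fell and 1 rose in each of BDL7, BDL28, DDC7 and DDC28. All tested genes gave 18.5%, 22.7%, 22.1% and 24.7% lower and 20.2%, 24.1%, 24.7% and 27.9% higher, so 1 rise among 4 is near the shares that rose. Pros1 encodes protein S, the cofactor of activated protein C. It had normalized counts of 326, 351, 342 and 311 in SHAM, 596, 584, 549 and 635 in BDL7 and 689.7, 1072, 857 and 828 in BDL28. In the DDC model there were 253, 212, 205 and 240 in CTLD, 506, 474, 662 and 671 in DDC7 and 586, 627, 585 and 806 in DDC28. Every treated library exceeded every control of its model. Pros1 was higher by 1.77-fold in BDL7 (0.83, SE 0.13, adjusted p = 3.44e-06), 2.56-fold in BDL28 (1.36, SE 0.13, adjusted p = 9.65e-11), 2.51-fold in DDC7 (1.33, SE 0.13, adjusted p = 2.41e-10) and 2.84-fold in DDC28 (1.5, SE 0.13, adjusted p = 6.57e-12). Protein S is also made outside hepatocytes, in endothelial cells among others, and the 5 markers of sinusoidal endothelium summed to 395 to 456 in SHAM, 349 to 428 in BDL7 and 218 to 328 in BDL28, and to 436 to 542 in CTLD, 376 to 423 in DDC7 and 255 to 303 in DDC28. These sums were lower in BDL28, DDC7 and DDC28 than in their controls, without overlap. As a percent of a library's counts, however, BDL28 (0.00846 to 0.0140) overlapped SHAM (0.0128 to 0.0150). DDC7 (0.0150 to 0.0174) then overlapped CTLD (0.0129 to 0.0184), and only DDC28 (0.00986 to 0.0127) lay below its control. The part of other cells was not tested.

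Proc, the gene of protein C itself, fell in the same 4 groups, by 0.87, 0.67, 0.72 and 0.91 on the log2 scale in BDL7, BDL28, DDC7 and DDC28, and kept its call under each scaling. Serpind1, heparin cofactor II, had normalized counts of 758, 725, 818 and 772 in SHAM, 479.6, 599, 523 and 547 in BDL7 and 453, 274, 379.8 and 491 in BDL28. It had 740, 811, 836 and 768 in CTLD, 645, 652, 595 and 467 in DDC7 and 530.5, 527, 542 and 515 in DDC28. The treated groups lay below their controls. Serpind1 was 1.97-fold lower in BDL28 (-0.98, SE 0.11, adjusted p = 8.33e-09), with smaller falls by 0.52, 0.43 and 0.58 in BDL7, DDC7 and DDC28 that lost their call under total-count scaling (-0.19, -0.08 and -0.22). Serpinc1, antithrombin, fell by 0.36, 0.44, 0.29 and 0.45 in the 4 groups, but quantile normalization turned these into 0.33, 0.14, 0.47 and 0.34. The 3' ends of Serpinc1 and Serpind1 overlap Zbtb37 and Pi4ka on the opposite strand.

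Of the 3 genes of fibrinolysis, 2, 3, 2 and 2 fell in BDL7, BDL28, DDC7 and DDC28, with medians of -0.27, -0.34, -0.28 and -0.38. In the same comparisons 18.5%, 22.7%, 22.1% and 24.7% of all tested genes fell. Plg, plasminogen, had normalized counts of 3978, 3795, 4163 and 3853 in SHAM, 2846, 3108, 2925 and 2749 in BDL7 and 2399.5, 3574, 3481 and 3424 in BDL28. It had 3820.4, 4039, 4127 and 3893 in CTLD, 2948, 2724, 3164 and 2557 in DDC7 and 2447, 2456, 2749 and 2801 in DDC28. The falls of Plg by 0.44, 0.31, 0.48 and 0.61 became 0.24, 0.26, 0.17 and 0.12 under quantile normalization, and the BDL28 call was lost without BDL28 replicate 1 (-0.18, adjusted p = 0.0673). Its 3' end overlaps Slc22a3 on the opposite strand. Cpb2, the carboxypeptidase that slows fibrinolysis, had normalized counts of 1689.8, 1517, 1616 and 1606 in SHAM, 1716, 1817, 1605 and 1442 in BDL7 and 968, 1173, 1273 and 1778 in BDL28, and 1329, 1545, 1623 and 1399.9 in CTLD, 1202, 1231, 1378 and 1115 in DDC7 and 1238, 1110.2, 1196 and 1278 in DDC28. BDL28 overlapped SHAM, and the BDL28 call of Cpb2 (-0.34, adjusted p = 0.0251) was lost without BDL28 replicate 1 or 2 or SHAM replicate 1 (-0.51 to -0.21). Serpinf2, which encodes the plasmin inhibitor antiplasmin, fell by 0.27, 0.35, 0.28 and 0.38, and total-count scaling left 0.05, -0.09, 0.07 and -0.02 without a call. The BDL7 call was also lost without BDL7 replicate 4 or SHAM replicate 3 (-0.30 to -0.22), and the DDC7 call without CTLD replicate 2 or DDC7 replicate 4 (-0.38 to -0.21).

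By branch, the 21 genes of clotting and fibrinolysis had medians of -0.36, -0.35, -0.41 and -0.54 in BDL7, BDL28, DDC7 and DDC28, and the 19 complement genes -0.20, -0.79, -0.38 and -0.67. For 19 tested genes of other secreted hepatocyte proteins, such as albumin and apolipoproteins, the medians were -0.34, -0.13, -0.44 and -0.52. At day 28, terminal complement stood at -2.24 and -2.20 and the clotting factors at -0.36 and -0.61. The spread within complement, from C8a at -3.82 to C3 at 0.93 in BDL28, was wider than within clotting and fibrinolysis, from F11 at -1.24 to Pros1 at 1.36. No test between branches was made.

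**Figure D5:**
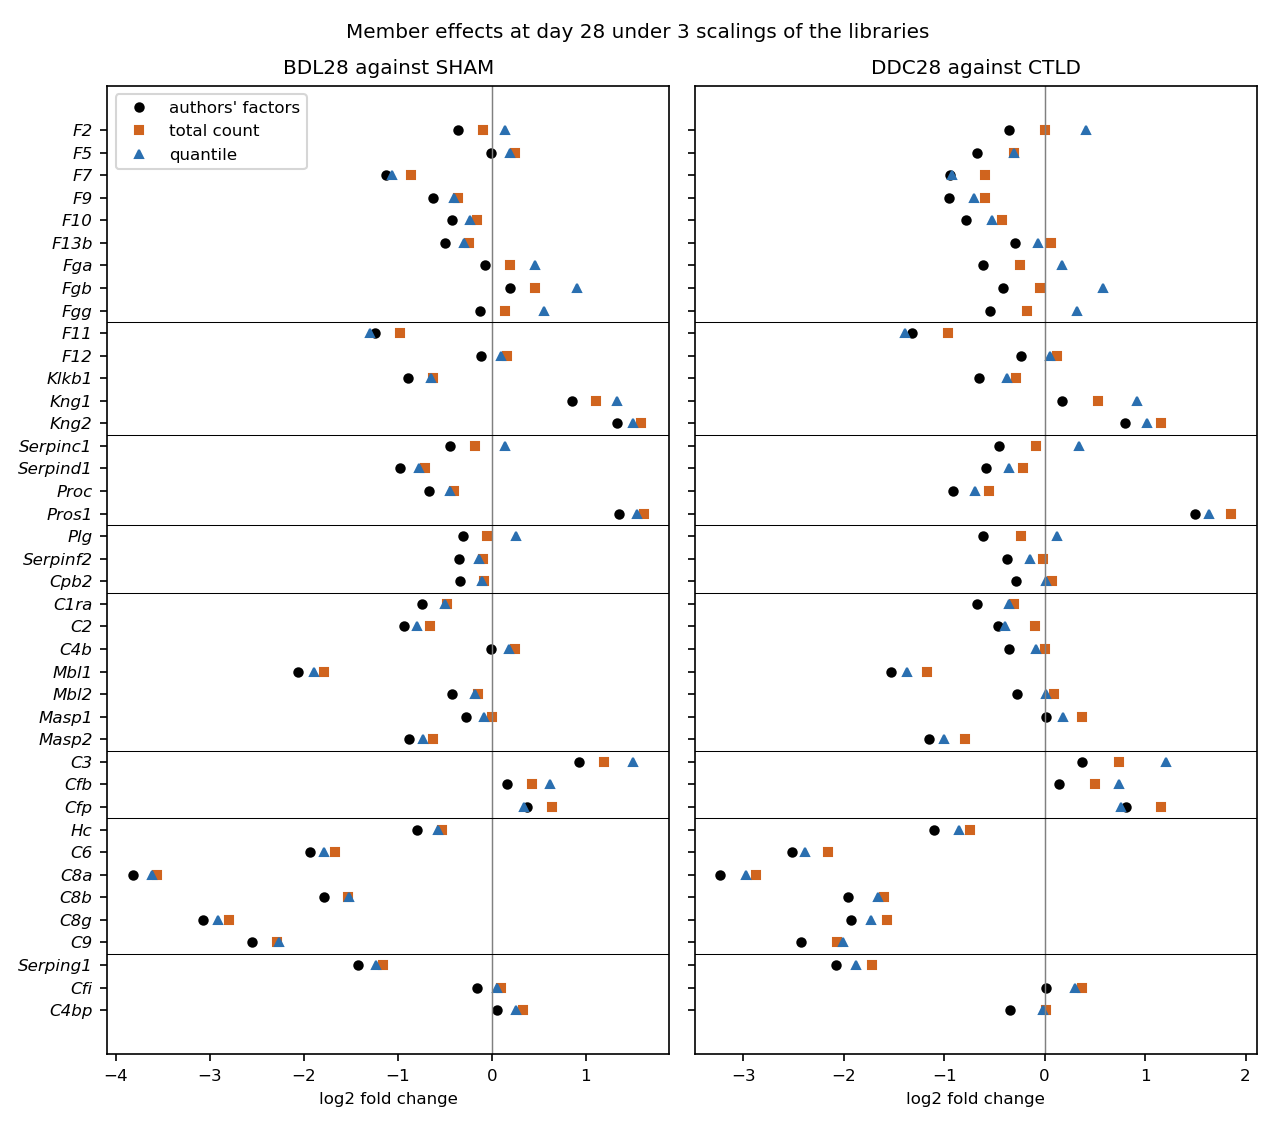
Log2 fold change of each member in BDL28 against SHAM and DDC28 against CTLD under the authors' factors, total-count scaling and quantile normalization. Terminal complement, Mbl1, Masp2 and Serping1 lie left of 0 and Pros1, Kng2 and C3 right of 0 under all 3, whereas F2, Fga, Fgb, Fgg, Serpinc1 and Plg cross 0 in DDC28.

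Between day 7 and day 28 of BDL, 6 members rose and 16 fell (14.0% and 16.7% of all tested genes). Between the days of DDC, 2 rose and 8 fell (2.07% and 3.63%). Of the 19 complement genes, 13 fell between the days of BDL and 8 between those of DDC. C8a changed further by -3.37 on the log2 scale with BDL (adjusted p = 1.45e-06) and by -2.07 with DDC (adjusted p = 0.00278), and C6 by -1.49 (adjusted p = 5.88e-07) and -1.47 (adjusted p = 1.98e-06). C9 fell by 1.60 and 0.74, and Serping1 by 1.24 and 0.81. Between the BDL days C8g fell by 1.61, or by 1.08 to 1.94 over the left-out libraries, and Mbl1 by 1.28. Neither passed the test between the DDC days, although every DDC28 library lay below every DDC7 library for both, and the difference between the 2 day changes was not tested. The changes between days of C8b (-0.34 and -0.42) lost their call in 4 and 6 of 8 left-out libraries (-0.47 to -0.17 with BDL and -0.48 to -0.36 with DDC). Both kininogens rose between the days, Kng1 by 0.75 with BDL and 0.58 with DDC, and Kng2 by 0.87 and 0.55. The DDC change of Kng2 lost its call without DDC28 replicate 3 or 4 or DDC7 replicate 1 or 4 (0.50 to 0.60). Without BDL28 replicate 1, 10 members rose and 14 fell between the BDL days.

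The effects of BDL and DDC were compared as a difference of differences. At day 7, 3 members were called with a higher BDL than DDC effect and 1 with a lower one (3.78% and 4.68% of all tested genes). These were Serping1 (1.09), C9 (0.73, adjusted p = 0.0492) and C3 (0.57, adjusted p = 0.021), and Klkb1 (-0.47, adjusted p = 0.0197). The C9 call was lost in 14 of 16 left-out libraries (0.66 to 0.80), that of C3 without BDL7 replicate 3 (range 0.51 to 0.60) and that of Klkb1 without BDL7 replicate 1 (range -0.54 to -0.41). At day 28, 5 members had a higher BDL effect and 0 a lower one (4.69% and 5.59% of all tested genes), and edgeR and DESeq2 also called 0 lower, where 20 of 40 members and 3297 of 12596 genes had an unadjusted p under 0.05 in either direction. The 5 were Kng1 (0.68, adjusted p = 0.0128), F5 (0.66, adjusted p = 0.000225), Serping1 (0.66, adjusted p = 0.00451), Fgb (0.61, adjusted p = 0.0449) and C3 (0.56, adjusted p = 0.0216). Without BDL28 replicate 1 the counts were 13 and 5, and the Fgb call was lost in 14 of 16 left-out libraries (0.43 to 0.82). Quantile normalization ended the day 28 calls of Kng1 (0.41), Fgb (0.33) and C3 (0.29), and the day 7 calls of C3 (0.43) and C9 (0.72). C8a, at -3.82 with BDL28 and -3.23 with DDC28, was not called different between the models. Of the members called here, Serping1, C3, Kng1 and F5 also differed among the 3 control groups by the F test. All SHAM values of F5 lay below those of CTLD. How far unequal controls carry these differences between effects was not tested.

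With cyclosporin A few members passed the test. The 5 called lower in CsA7 were C6 (-0.64, adjusted p = 0.0416), Hc (-0.46, adjusted p = 0.0266), Serping1 (-0.43, adjusted p = 0.0152), C1ra (-0.26, adjusted p = 0.0354) and F2 (-0.21, adjusted p = 0.0496). Normalized counts of C6 were 818, 943, 576 and 744 in VEHICLE and 476, 529, 648 and 344 in CsA7, and those of Serping1 were 2042, 2043, 1541 and 1724 and 1405, 1286, 1431 and 1316. C6 and Hc overlapped their controls, while the other 3 did not. Leaving out 1 library at a time gave 0 to 8 lower members, the calls of C6, Hc, Serping1, C1ra and F2 being lost in 6, 5, 3, 6 and 8 of 8 left-out libraries (-0.78 to -0.47, -0.56 to -0.34, -0.51 to -0.37, -0.29 to -0.23 and -0.23 to -0.19). Each of these 5 calls was lost without VEHICLE replicate 1 and also without VEHICLE replicate 2. No member was called higher by limma, edgeR (4 lower) or DESeq2 (10 lower), 17 of 40 having an unadjusted p under 0.05 in either direction beside 2257 of 12596 genes, and total-count scaling and quantile normalization called 0 lower. At CsA28 limma called 0 members, as did edgeR and DESeq2, and 10 had an unadjusted p under 0.05, as did 1174 of 12596 genes. Between CsA28 and CsA7 (1.37% and 1.07% of all tested genes higher and lower) limma, edgeR and DESeq2 called 0, and 5 had an unadjusted p under 0.05, as did 1974 of 12596 genes.

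The members described above were also read in the cyclosporin libraries. C8a had normalized counts of 2548, 2857, 1995 and 2183 in VEHICLE, 1646, 1844, 2072 and 1641 in CsA7 and 1858, 1806, 1660.2 and 1963 in CsA28. C8g had 1207, 1261, 1172 and 1432, 1247, 1110.5, 950.4 and 1122 and 1228, 1194, 1135 and 1095, and Mbl1 1053, 917, 796 and 909, 841, 813, 698 and 775 and 733, 734, 775 and 815. Every CsA28 value of C8a lay below VEHICLE, whereas the groups of C8g and Mbl1 overlapped. Pros1 had 385, 346, 278 and 253 in VEHICLE, 252, 244, 299 and 280.3 in CsA7 and 259, 311, 263 and 276 in CsA28, and F11 81.4, 79.6, 88.7 and 130.1, 95.1, 80.9, 83.5 and 120.4 and 68.6, 103, 57.1 and 69.2. None of these 5 passed the test in CsA7 or CsA28, which does not show that they were equal. VEHICLE livers differed among themselves, C3 reading 7634, 6163, 4603 and 4664 there, 4438, 3942, 4868 and 4717 in CsA7 and 4356, 4999, 4861 and 5261 in CsA28.

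The fibrinogen chains had their widest ranges of the 3 cyclosporin groups in VEHICLE. Fga read 9569.7, 7140.2, 5275 and 5487 in VEHICLE, 5150, 5197, 4776 and 4924 in CsA7 and 5900.1, 5745, 5129 and 5722 in CsA28. Fgb read 12669.5, 10239, 8215 and 8955, 8160.3, 8345, 8169 and 7674 and 9025, 9007, 7998 and 9133 in the same order. Fgg read 12021, 9547, 7088 and 8151, 7006, 6951, 6279 and 6419 and 7958, 7808, 6947 and 7793. CsA7 values of Fga and Fgg lay below all VEHICLE values, without passing the test. F7 read 273, 271, 236 and 211 in VEHICLE, 252, 230.4, 214 and 273 in CsA7 and 256, 245, 175 and 189.7 in CsA28. Kng2 read 927, 959, 669 and 709, 797, 700.5, 829 and 916 and 713, 928, 818 and 709.6. Plg read 4600, 4680.2, 4056 and 4483, 4053, 3667, 3508 and 3892 and 3851, 4564, 3815 and 4106. Of these 3, only Plg in CsA7 lay wholly below VEHICLE. Serpind1 read 867, 849, 748 and 831 in VEHICLE, 818, 716, 802 and 836 in CsA7 and 689, 735, 656 and 719.7 in CsA28, with CsA28 below VEHICLE. Cpb2 read 2088, 1981, 1371 and 1625, 1378, 1199.8, 1288 and 1374 and 1426, 1592, 1175 and 1436. F9 read 1176, 1278, 903 and 984, 945, 852, 973 and 906 and 918, 969, 918 and 1043. Cpb2 and F9 overlapped VEHICLE on both days. Masp2 read 672, 683, 726 and 744 in VEHICLE, 695, 617, 628 and 718 in CsA7 and 673, 748, 639 and 652 in CsA28. Cfp read 80.2, 78.7, 70.0 and 57.7, 53.6, 62.1, 67.4 and 61.7 and 64.7, 49.4, 45.7 and 59.1. C4bp read 2581, 2155, 1580.4 and 1769, 1690.4, 1476, 1714 and 1582 and 1491, 1846, 1592 and 1755. Masp2, Cfp and C4bp overlapped VEHICLE on both days.

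The 3 control groups were not alike. By the F test among SHAM, VEHICLE and CTLD, 11 of 40 members differed (19.4% of all tested genes): F5, F9, F10, Kng1, Kng2, Proc, Pros1, Masp2, C3, Hc and Serping1. F5 had the smallest adjusted p, at 1358 ± 29.1 (SD, n = 4) in SHAM, 2628 ± 162 in VEHICLE and 2138 ± 159 in CTLD (adjusted p = 2.69e-10). All SHAM values of F5 lay below those of the other controls. Over the left-out libraries 7 to 14 members differed. Levels are therefore compared here only with a model's own control.

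Other genes of the pathways were counted from a list that was made with earlier results of these data known. Of 22 further genes of clotting and fibrinolysis 20 were tested, with 9 higher and 5 lower in BDL7, 9 and 9 in BDL28, 10 and 6 in DDC7, and 9 and 6 in DDC28. Of all tested genes 20.2%, 24.1%, 24.7% and 27.9% were called higher and 18.5%, 22.7%, 22.1% and 24.7% lower in these comparisons. The higher counts include genes that passed the filter through the treated groups, such as the plasminogen activator Plat and the factor XIII A subunit F13a1, which averaged 2.99 and 0.263 normalized counts in SHAM and 3.23 and 0.326 in CTLD. Thbd, thrombomodulin, rose by 1.82, 1.05, 1.83 and 1.44 on the log2 scale, and F3, tissue factor, by 1.57 and 2.20 with DDC. The BDL changes of F3 are not given here, and F3 differed among the 3 controls (F test, adjusted p = 2.64e-06). Ggcx, the enzyme that carboxylates vitamin K-dependent factors, fell by 0.55, 1.54, 0.81 and 1.25. Of 25 further complement genes 22 were tested, with 7 higher and 6 lower in BDL7, 6 and 11 in BDL28, 7 and 6 in DDC7, and 6 and 9 in DDC28. Several of these counts are near the shares of all tested genes. C3ar1, the receptor of the C3a fragment, rose by 1.5, 1.49, 2.15 and 2.94. Vtn, vitronectin, which binds the terminal complex, fell by 0.32, 0.32, 0.86 and 0.98, and C1rl, a protease related to C1r, by 0.91, 0.55, 0.70 and 0.71. Vtn and C1rl were chosen after their values were seen. Other scalings were not run for these further genes. Several of these genes are typical of macrophages, platelets or endothelium. Of 6 markers of monocytes and macrophages, 6, 5, 5 and 5 were called higher in BDL7, BDL28, DDC7 and DDC28. Of 5 markers of sinusoidal endothelium, 0 were called higher and 1, 3, 1 and 5 lower. Only 1 of 4 platelet markers was tested, and it was called higher in these comparisons. The part of those cells was not tested.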

How the data were processed

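Liver RNA from 36 mice in 9 groups of 4 was sequenced by 3' QuantSeq with molecular identifiers. The submitters' processing notes list the build GRCm39, the aligner STAR 2.7.9a, DESeq2, RSEM 1.3.1, Trim Galore and UMI-tools 1.1.1, with no role or order given. The deposited signal values of the authors are gene counts divided by 1 factor per library, and whole reads were recovered for 100% of them within 0.001 read. Ensembl identifiers were mapped to symbols for 29121 of 29546 genes. Values were analysed as log2(normalized count + 1) with limma 3.58.1 (trend, robust; R 4.3.3) over all 36 libraries, keeping genes at 10 or more in at least 4 libraries. P-values were 2-sided and adjusted by Benjamini-Hochberg within each comparison, with 0.05 as the threshold; log2 changes are on this scale, which understates changes of low genes. The members and lists were chosen with earlier results of these data known. Members were named by branch, with values in every library for up to 2 members per branch with the largest effect, the fibrinogen chains and C3. Alternatives were other pseudocounts, filters, scalings (total count, TMM, quantile), edgeR 4.0.16 and DESeq2 1.42.0 on the recovered reads, fits on the compared groups alone, a replicate block and leaving out each library. Promoters are RefSeq's for GRCm38.p6, and 3' overlaps are from GENCODE M21. The tests were also run on simulated data. The labels' groups were taken as separate mice. The limma p-values set a difference of group means against a spread between livers, estimated per gene over all 9 groups and moderated across genes.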

Additional observations from a re-analysis of the deposited data

Results flagged for a closer look

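In 21 of 360 groups of 4 libraries, 1 library lay far from the other 3 for a member gene; chance gives about 1 in 20 groups. In BDL28, replicate 1 was low for Plg (2399.5) and C4bp (1108). In BDL7, replicate 4 was low for Fga (3883). In SHAM, replicate 2 was low for C2 (277) and Cfi (1287), replicate 1 high for Cfb (2681) and replicate 4 high for C6 (772). In CTLD, replicate 4 was high for Kng1 (3940) and replicate 1 high for Cfb (2312). In DDC7, replicate 1 was high for Mbl1 (439) and replicate 3 high for Cfi (1403), and in DDC28 replicate 2 was high for Cfb (2725). In VEHICLE, replicate 3 was low for Masp1 (483), and in CsA7 replicate 4 was high for Proc (1117). In CsA28, replicate 1 was low for F5 (2065) and high for F12 (1263) and C1ra (1874), replicate 2 was high for F2 (3954) and Kng1 (5198), and replicate 3 was low for Fgb (7998) and Fgg (6947).

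The effect of BDL differed from that of DDC for 9 member comparisons by a test of the difference. Of all tested genes, 3.78% were called higher and 4.68% lower at day 7, and 4.69% and 5.59% at day 28. At day 7 the log2 differences were 1.09 for Serping1, 0.73 for C9, 0.57 for C3 and -0.47 for Klkb1. At day 28 they were 0.68 for Kng1, 0.66 for F5, 0.66 for Serping1, 0.61 for Fgb and 0.56 for C3. The calls of C9 and Fgb were lost in 14 of 16 left-out libraries each, and those of Klkb1 and C3 at day 7 in 1 of 16. Quantile normalization ended the calls of C9, Fgb and Kng1, and of C3 on both days. Serping1, C3, Kng1 and F5 also differed among the 3 control groups by the F test.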

How the results depend on the processing

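Of 165 called member changes, 94 kept their call and direction under each alternative other than a left-out library, and 129 without each single library. These alternatives were the ones planned. Depth limited F11 and Cfp most, with as few as 24 reads.

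Total-count scaling gave 9 members higher and 10 lower in BDL7, 9 higher in BDL28, 0 lower in CsA7, 7 and 13 in DDC7, 8 and 18 in DDC28, and 3 lower for the day 28 difference between BDL and DDC. Quantile normalization gave 14 and 10 in BDL7, 9 higher in BDL28, 0 lower in CsA7, 13 and 13 in DDC7, 11 and 19 in DDC28, and 2 higher for the day 28 difference. For the BDL and DDC groups, the counts of all tested genes under both scalings are given above. DESeq2 gave 10 lower in CsA7 and 5 higher for the day 7 difference. Fits on the compared groups alone gave 1 lower in CsA7, 5 higher in DDC7, 3 higher and 10 lower between the BDL days, and 9 and 2 for the day 7 difference. Without a filter the differences gave 1 higher at day 7 and 3 at day 28.

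Under quantile normalization these turned round, in the order BDL7, BDL28, DDC7, DDC28 where all 4 are given: Fga (0.36, 0.46, 0.26, 0.17), Fgg (0.47, 0.56, 0.41, 0.32), Serpinc1 (0.33, 0.14, 0.47, 0.34), Plg (0.24, 0.26, 0.17, 0.12) and F2 (0.13, 0.14, 0.26, 0.41, and 0.11 in CsA7). In BDL7, DDC7 and DDC28 so did Fgb (0.61, 0.63, 0.58) and F12 (0.04, 0.04, 0.05). Single reversals were in BDL7 F5 (0.10), Serpinf2 (0.02), C1ra (0.10) and Hc (0.01), and in DDC7 Kng1 (0.24), C1ra (0.01) and Cfi (0.32). Under total-count scaling they were in BDL7 F5 (0.07), F12 (0.05), Serpinf2 (0.05), C1ra (0.00), Masp1 (0.29) and Hc (0.02), in BDL28 F5 (0.25), in DDC7 F12 (0.06), Serpinf2 (0.07), Fgb (0.01), Serpinc1 (0.06) and Cfi (0.34), and in DDC28 F12 (0.12), F2 (0.00), F13b (0.06), C4b (0.00) and C4bp (0.01). The cause was not tested.

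Leaving out 1 library gave 4 to 4 higher and 18 to 21 lower in BDL7, 4 to 6 and 24 to 26 in BDL28, 0 to 0 and 0 to 8 in CsA7, 2 to 3 and 25 to 27 in DDC7, and 4 to 4 and 26 to 30 in DDC28. It gave 3 to 10 and 12 to 16 between the BDL days, 1 to 2 and 4 to 9 between the DDC days, 1 to 3 and 0 to 2 for the day 7 difference, 4 to 13 and 0 to 5 for the day 28 difference, and 7 to 14 among controls. Both extremes of the last difference came with BDL28 libraries left out, 13 and 5 without replicate 1. Same-numbered libraries correlated above 0.1 in 0 of 4 pairs in each comparison except BDL28 against BDL7 (2 of 4, highest 0.15). In DDC28 against CTLD 3 of 4 libraries matched their own number best. These numbers are those of the sample descriptions. The sample titles often carry other numbers, and a pairing by those was not examined. The replicate block gave 3 lower in CsA7.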
